A study of Mus musculus with 12 samples.

Results

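The 6 genes described here handle zinc and related metals in mouse hepatocytes: the metallothioneins Mt1 and Mt2, the importers Slc39a14 and Slc39a4, and the exporters Slc30a1 and Slc30a10. They were taken by name from a table of 28030 genes. The set was chosen by the fasted-against-fed values of the metallothioneins, which were among the genes with the largest rise on fasting. Fasted-against-fed values of the 6 genes are therefore given as a description, without a test, while differences between liver zones, which did not enter that choice, were tested. All 6 genes were in the table and all 6 passed the filter on low counts.

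Metallothioneins are small proteins rich in cysteine that bind zinc and copper and buffer the free metal. Zinc enters the cytosol through transporters of the ZIP family, encoded by Slc39a genes, and leaves it through the ZnT family, encoded by Slc30a genes. The transcription factor MTF-1 senses zinc and switches on metallothionein genes and Slc30a1 through short DNA motifs called metal response elements. In liver, metallothionein genes also respond to glucocorticoids and to inflammatory signals.

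RNA was sequenced from hepatocytes of 12-week-old wild-type female mice on a normal chow (lab diet #5053), all trained over 3 days to a daily rhythm of 16 h without food and 8 h with food, and all given 20% sucrose in the drinking water with their food on the last day. The 4 groups of 3 libraries were pericentral hepatocytes (PC, next to the central vein) and periportal hepatocytes (PP, around the portal vein) of mice fasted for 24 h, and PC and PP hepatocytes of fed mice killed after 4 h of feeding, with neither food nor sucrose during the fast. Digitonin, the detergent named in the labels, lyses the hepatocytes of the zone that is not wanted. The labels call the libraries biological replicates and do not say whether PC and PP libraries of the same number came from the same mouse, and no strain is named in the sources used here.

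Mt1 and Mt2 lie side by side on chromosome 8 (GRCm38), Mt2 at chr8:94172664-94173568 and Mt1 at chr8:94179082-94180327, both on the plus strand, with 3 exons each in the transcripts used. The 5513 bases between them hold 0 annotated genes. Their coding sequences are shown because they show how alike the pair is and how dense the metal-binding residues are. Cysteine codons are in capitals, 5′ to 3′, from GENCODE M21.
Mt1: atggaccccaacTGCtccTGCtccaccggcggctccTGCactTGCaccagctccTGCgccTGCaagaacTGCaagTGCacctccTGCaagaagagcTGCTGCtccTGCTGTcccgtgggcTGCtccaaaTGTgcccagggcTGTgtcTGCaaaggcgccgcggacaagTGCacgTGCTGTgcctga
Mt2: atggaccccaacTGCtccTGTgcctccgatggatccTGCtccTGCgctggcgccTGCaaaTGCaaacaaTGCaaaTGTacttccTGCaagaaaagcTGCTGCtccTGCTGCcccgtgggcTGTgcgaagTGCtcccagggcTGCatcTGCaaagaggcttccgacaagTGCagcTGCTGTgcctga
Each coding sequence has 186 bases, of which 148 (79.6%) are identical between the genes. Each holds 20 cysteine codons among 62 codons, stop codon included, and all 20 stand at the same places. The longest run of identical bases between the whole transcripts is 20, and 0 of the 31-base words of Mt1 occur in Mt2, so no stretch of that length is shared by the pair. Mt2 shares 432 of its 588 exonic bases (73.5%) with the antisense gene Gm45774, which was not in the table. Of the 573 words of 31 bases in Mt2, 330 occur in Gm45774. The library kit does not mark strand, so RNA of Mt2 and Gm45774 cannot be told apart in the shared stretch. Mt2 values are uncertain to that extent.

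The promoters of Mt1, Mt2 and Slc30a1 are shown because these genes are textbook targets of MTF-1, and because the levels of the metallothioneins and of Slc30a1 stood on opposite sides in fasted libraries. Each run covers 250 bases before and 50 after the RefSeq start (GRCm38.p6, plus strand), with matches to a metal response element in capitals. Letters searched on both strands were TGCACNC and TGCGCNC.
Mt1, chr8:94178839-94179138: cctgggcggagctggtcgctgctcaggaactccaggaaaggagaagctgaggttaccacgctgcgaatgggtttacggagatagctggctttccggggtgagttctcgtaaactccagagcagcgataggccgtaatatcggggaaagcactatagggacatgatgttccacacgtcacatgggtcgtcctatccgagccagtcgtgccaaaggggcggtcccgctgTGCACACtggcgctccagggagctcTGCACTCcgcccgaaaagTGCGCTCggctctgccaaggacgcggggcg
Mt2, chr8:94172368-94172667: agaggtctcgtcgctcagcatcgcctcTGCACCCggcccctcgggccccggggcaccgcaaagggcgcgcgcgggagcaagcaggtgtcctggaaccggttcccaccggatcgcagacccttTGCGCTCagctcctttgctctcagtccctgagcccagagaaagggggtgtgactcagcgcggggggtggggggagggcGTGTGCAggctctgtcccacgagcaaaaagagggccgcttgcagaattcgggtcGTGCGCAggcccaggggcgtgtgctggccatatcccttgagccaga
Slc30a1, chr1:191906531-191906830: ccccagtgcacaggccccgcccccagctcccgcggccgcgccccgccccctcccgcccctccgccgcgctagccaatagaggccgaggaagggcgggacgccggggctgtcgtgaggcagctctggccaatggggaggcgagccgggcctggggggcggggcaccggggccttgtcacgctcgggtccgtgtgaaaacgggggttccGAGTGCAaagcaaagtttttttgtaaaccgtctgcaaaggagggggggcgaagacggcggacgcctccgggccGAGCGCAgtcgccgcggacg
Mt1 had 3 matches, Mt2 had 4 and Slc30a1 had 2. Of 32851 promoters of the same length, 25.7% held at least 1 match, 7.11% at least 2, 1.97% at least 3 and 0.517% at least 4. Slc30a10 had 3 matches (chr1:185454598-185454897), of which 2 overlap each other on opposite strands. An antioxidant response element, TGACNNNGC on either strand, was matched 1 time in Mt2 and 1 time in Slc30a1, 0 times in Mt1 and Slc30a10, and at least 1 time in 12.4% of all promoters. None of the antioxidant matches overlapped a metal response match. The RefSeq promoter table matched 4 of the 6 genes, and Slc39a14 and Slc39a4 were not among them. A match describes letters in the window and shows no binding. The matches of Mt1 began at -23, 2 and 20 bases from its RefSeq start. Bases outside the windows and other start sites were not searched. The counts, those of 0 included, therefore hold for these windows only and do not rank the genes.

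Estimated counts per library ranged from 16245846 to 27449412, and tests were made on 12086 genes. Summed hepatocyte markers reached 76800 to 157000 CPM, the count divided by the scaled library size in the usual unit. Summed pericentral markers ran from 13600 to 24200 CPM in PC libraries, against 372 to 1990 CPM in PP libraries. Summed periportal markers ran from 7640 to 9190 CPM in fasted PC, against 14900 to 21000 CPM in fasted PP libraries. In fed mice they ran from 2840 to 3520 CPM in PC, against 8010 to 10300 CPM in PP libraries. They thus separated the zones within each feeding state, while fasted PC overlapped fed PP libraries. Fasted PC replicate 1 stood apart in some zone markers. The pericentral gene Glul had 172 CPM there, against 3639 and 2353 CPM in fasted PC replicates 2 and 3. The periportal gene Hal had 578.9 CPM there, against 69.87 and 108.6 CPM. The sums differed less: 13600 CPM there, against 24200 and 21300 CPM, for pericentral markers, and 9190 CPM, against 7640 and 8110 CPM, for periportal ones. The periportal gene Pck1 went the other way, with 4382 CPM there, against 4672 and 4516 CPM. Markers of Kupffer, endothelial, stellate, bile duct and blood cells summed to at most 9.25, 16.5, 14.4, 32.4 and 5.88 CPM. In bulk RNA, fewer cells of a type and less RNA per cell cannot be told apart.

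Levels between genes were compared per length, as CPM per kilobase of transcript. In fasted PC libraries the order of mean levels was Mt1 (465.1 CPM per kb), Mt2 (361.6), Slc39a14 (30.03), Slc30a1 (5.592), Slc39a4 (4.84) and Slc30a10 (2.216). There Mt1 and Mt2 overlapped, as did Slc30a1 and Slc39a4, and the other neighbours did not. In fasted PP libraries the order was Mt1 (656.8 CPM per kb), Mt2 (568.5), Slc39a14 (39.8), Slc30a1 (6.761), Slc30a10 (5.975) and Slc39a4 (5.57), with overlap between the metallothioneins and among the lowest 3 genes. In fed PC libraries the order was Mt1 (45.9 CPM per kb), Slc39a14 (32.15), Slc30a10 (15.02), Mt2 (7.898), Slc30a1 (7.573) and Slc39a4 (5.34). Mt1 overlapped Slc39a14 and Mt2 overlapped Slc30a1 there. In fed PP libraries the order was Mt1 (56.49 CPM per kb), Slc39a14 (38.17), Slc30a10 (19.74), Mt2 (13.96), Slc30a1 (8.327) and Slc39a4 (8.269). Mt1 stood above Slc39a14 in all fed PP libraries, and the lowest 4 genes formed a chain of overlapping ranges. Slc39a14 thus ranked next to Mt1 in fed libraries and below both metallothioneins in fasted ones.

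The metallothioneins showed the widest range of the set between feeding states. Mt1 had 440.3, 165.6 and 160.1 CPM in fasted PC libraries (255.3 ± 160, mean ± SD, n = 3), against 39.4, 13.46 and 22.73 CPM in fed PC libraries (25.2 ± 13.1, n = 3). In PP hepatocytes Mt1 had 560.7, 303.9 and 217.1 CPM in fasted libraries (360.6 ± 179), against 23.23, 36.37 and 33.44 CPM in fed libraries (31.01 ± 6.89). Every fasted library stood above every fed library of its zone, and replicate 1 was the highest of both fasted groups. The log2 fold change of Mt1, fasted over fed, was 3.34 ± 0.57 (SE) in PC, or 10.1-fold, and 3.54 ± 0.57 in PP, or 11.6-fold. By log2 fold change it was number 32 from the top of 12086 genes in PC and number 26 in PP.

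Mt2 was lower than Mt1 in fed libraries and close to it in fasted ones. It had 346.4, 89.01 and 118.9 CPM in fasted PC libraries (184.8 ± 141), against 4.015, 3.096 and 4.996 CPM in fed PC libraries (4.036 ± 0.95). In PP hepatocytes it had 459.3, 241.4 and 170.7 CPM in fasted libraries (290.5 ± 150), against 3.794, 9.761 and 7.853 CPM in fed libraries (7.136 ± 3.05). Fasted and fed libraries did not overlap in either zone, and fasted replicate 1 was again the highest in both. The log2 fold change of Mt2 was 5.53 ± 0.68 in PC (46.1-fold) and 5.35 ± 0.67 in PP (40.8-fold), number 9 and number 16 from the top. Without fasted PC replicate 1 the PC value was 4.68 for Mt2 and 2.67 for Mt1. The lowest count in any library was 89 for Mt2 and 387 for Mt1.

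**Figure D1:**
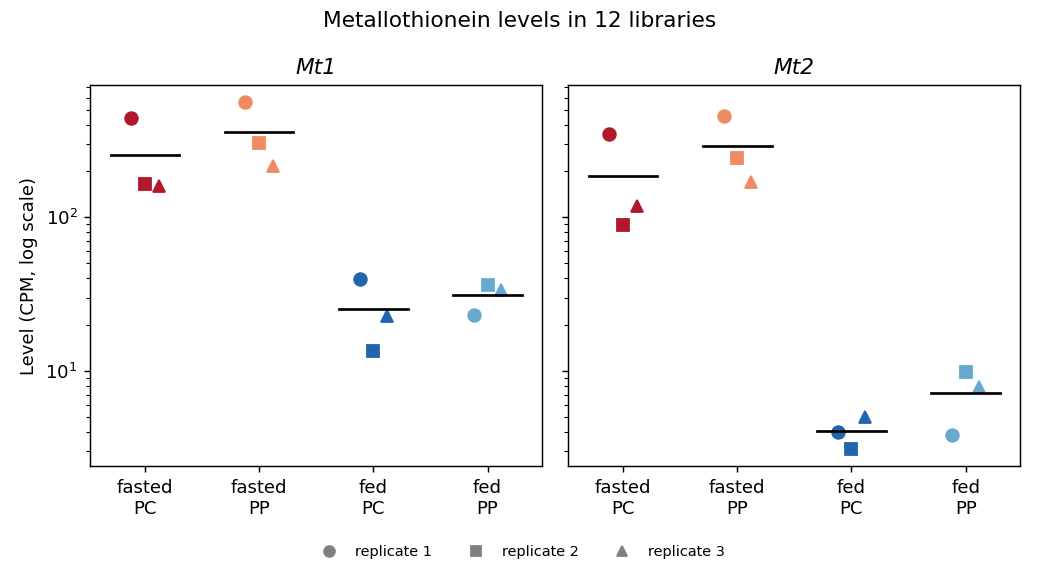
Levels of Mt1 (left) and Mt2 (right) in CPM on a log scale in each of the 12 libraries, by group, with the marker shape giving the replicate and the line the group mean. All fasted libraries stand above all fed libraries of their zone, and replicate 1 is the highest of each fasted group.

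The balance within the pair differed between feeding states. Mt1 made up 56%, 65% and 57.4% of the counts of the pair in fasted PC libraries, against 90.8%, 81.3% and 82% in fed PC libraries. It made up 55%, 55.7% and 56% in fasted PP libraries, against 86%, 78.8% and 81% in fed PP libraries. No fasted library reached the lowest fed one. The widest exact Clopper-Pearson 95% interval was 77.5% to 84.7% (fed PC replicate 2), which covers counting error only, and no test was made of fasting. The highest fasted share was that of fasted PC replicate 2, the library with the lowest summed level of the pair in its group (254.6 CPM). Per length, Mt1 was 1.14 to 1.73 times Mt2 in fasted libraries and 3.47 to 9.13 times in fed libraries. Between zones, the share was 3.33 percentage points higher in PC (3.91 in fasted and 2.75 in fed mice), a difference within the spread of libraries (p = 0.185, exact permutation test, two-sided, 400 arrangements within feeding states, smallest possible p 0.005). Summed, the pair reached 440 ± 300 CPM in fasted PC and 651 ± 329 CPM in fasted PP libraries, against 29.2 ± 13.5 CPM in fed PC and 38.1 ± 9.93 CPM in fed PP libraries (SD, n = 3 each).

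**Figure D2:**
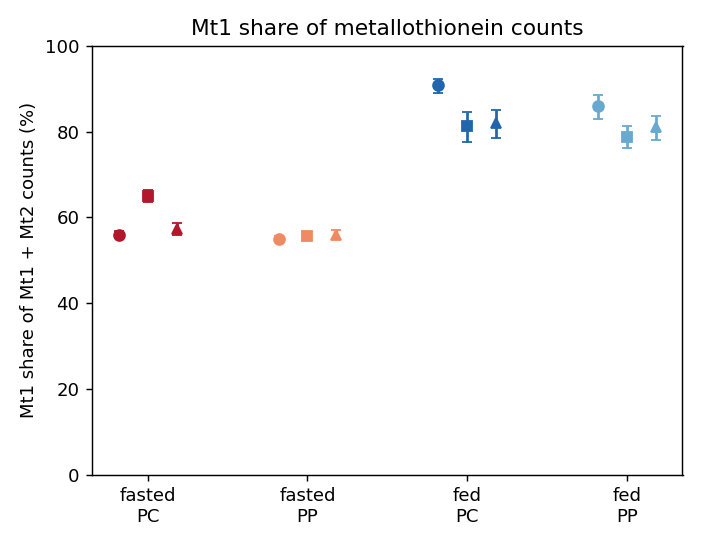
Share of Mt1 in the summed estimated counts of Mt1 and Mt2 (%), 1 point per library by group (circle, square and triangle for replicates 1, 2 and 3); bars are exact 95% intervals for counting error. The 6 fasted libraries lie between 55% and 65% and the 6 fed libraries between 78.8% and 90.8%.

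The other metallothionein genes of the cluster were hardly counted. Mt3, the form known from brain, was at 0 in 10 of 12 libraries, with at most 3 counts. Mt4, known from stratified epithelium, was at 0 in all 12 libraries, which allows up to 0.104 to 0.181 CPM by a limit of 3 counts per library.

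Summed markers of blood cells did not overlap between fasted and fed PC libraries, at very low levels. Of all tested genes 41.7% did not overlap there. The 7 lymphocyte and neutrophil markers summed to 1.39 to 3.27 CPM in fasted PC, against 0.174 to 0.817 CPM in fed PC libraries. In PP libraries they summed to 0.401 to 5.88 CPM in fasted and 0.416 to 1.28 CPM in fed mice, with overlap. Nkg7 was at 0 in all fed libraries and in all fasted PP libraries. Ms4a1 alone averaged lower in fasted than in fed PC libraries. Ptprc, the only marker of the 7 that was tested, was not called with fasting in PC (1.84 ± 0.87, edgeR adjusted p = 0.15). The marker sums are far below the level of Mt1 and Mt2 in fasted libraries, and their part in it was not tested.

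Slc39a14 encodes ZIP14, which brings zinc, manganese and iron not bound to transferrin into hepatocytes. It lies at chr14:70303469-70351425 on the minus strand. It had 137.6, 150.3 and 155.9 CPM in fasted PC libraries (147.9 ± 9.37), against 156.3, 203.4 and 228.5 CPM in fasted PP libraries (196.1 ± 36.6). In fed mice it had 164.9, 150 and 160.1 CPM in PC (158.4 ± 7.61), against 180.2, 197.3 and 186.5 CPM in PP (188 ± 8.64). PC libraries stood below PP libraries in both feeding states without overlap, by a margin of less than 1 CPM in fasted mice. Averaged over feeding states, the log2 fold change PC over PP was -0.33 ± 0.09 (95% interval -0.52 to -0.13), 1.25-fold lower in PC (edgeR adjusted p = 0.0301). This call ended without any 1 of 10 of the 12 libraries, that is all except fasted PP replicate 1 and fed PP replicate 1, with adjusted p from 0.053 to 0.099, and with libraries scaled by total counts (-0.25, adjusted p = 0.11). Neither feeding state alone reached the threshold (-0.41 ± 0.13, adjusted p = 0.0873 in fasted and -0.25 ± 0.13, adjusted p = 0.37 in fed mice), though the value in fasted mice did so without fasted PP replicate 1 (-0.57, adjusted p = 0.010) and with DESeq2 (-0.41, adjusted p = 0.041). Between feeding states Slc39a14 stayed within a narrow range, with log2 fold changes, fasted over fed, of -0.10 ± 0.13 in PC and 0.06 ± 0.13 in PP and overlapping libraries.

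Slc39a4 encodes ZIP4, best known for zinc uptake in the intestine, and was the least expressed importer of the set. It lies at chr15:76612383-76617384 on the minus strand. It had 13.8, 12.22 and 13.91 CPM in fasted PC libraries (13.31 ± 0.949), against 14.8, 11.69 and 19.47 CPM in fasted PP libraries (15.32 ± 3.92). In fed mice it had 15.77, 15.69 and 12.59 CPM in PC (14.68 ± 1.82), against 19.18, 20.23 and 28.81 CPM in PP (22.74 ± 5.28). PC and PP overlapped in fasted mice and not in fed mice, where fed PP replicate 3 was the highest of all 12 libraries. The log2 fold change PC over PP was -0.20 ± 0.20 in fasted mice (edgeR adjusted p = 0.654), -0.63 ± 0.20 in fed mice (0.0991) and -0.41 ± 0.14 averaged (0.0721; interval -0.72 to -0.11). None passed the threshold, and the averaged value did so only when fasted PP replicate 2 was left out (-0.49, adjusted p = 0.034). Fasted over fed, the log2 fold change was -0.14 ± 0.20 in PC and -0.57 ± 0.20 in PP. The fasted and fed libraries overlapped in PC and, by 1 library, in PP.

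Slc30a1 encodes ZnT1, which exports zinc across the plasma membrane. It lies at chr1:191906767-191913247 on the plus strand and shares 8.92% of its exonic bases with the antisense gene 1700034H15Rik. It had 31.01, 30.69 and 26.27 CPM in fasted PC libraries (29.32 ± 2.65), against 39.33, 39.35 and 40.46 CPM in fed PC libraries (39.71 ± 0.649). In PP hepatocytes it had 37.61, 37.79 and 30.96 CPM in fasted libraries (35.45 ± 3.89), against 38.28, 50.12 and 42.59 CPM in fed libraries (43.66 ± 5.99). Fasted libraries were below fed ones without overlap in both zones, by less than 1 CPM in PP. The log2 fold change, fasted over fed, was -0.44 ± 0.12 in PC and -0.30 ± 0.12 in PP, the opposite sign to that of Mt1 and Mt2. PC over PP it was -0.27 ± 0.12 in fasted mice (edgeR adjusted p = 0.241), -0.14 ± 0.12 in fed mice (0.66) and -0.21 ± 0.09 averaged (0.151), and none passed the threshold.

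Slc30a10 encodes ZnT10, a member of the zinc exporter family that exports manganese, and showed the largest called zone difference of the set. It lies at chr1:185454848-185468762 on the plus strand and shares 9.13% of its exonic bases with Gm2061 on the other strand. It had 11.18, 11.43 and 16.18 CPM in fasted PC libraries (12.93 ± 2.82), against 25.43, 39.02 and 40.17 CPM in fasted PP libraries (34.87 ± 8.2). In fed mice it had 68, 89.82 and 105.2 CPM in PC (87.68 ± 18.7), against 80.87, 132.7 and 132 CPM in PP (115.2 ± 29.7). PC and PP did not overlap in fasted mice and did overlap in fed mice, and replicate 1 was the lowest of each group. In fasted mice the log2 fold change PC over PP was -1.43 ± 0.26 (interval -1.99 to -0.87), 2.7-fold lower in PC (edgeR adjusted p = 0.00657). Leaving out any 1 library kept this call, with adjusted p from 0.0035 to 0.037. Averaged over feeding states the value was -0.91 ± 0.18, lower in PC (interval -1.30 to -0.53, adjusted p = 0.00494), also with any 1 library left out (0.0019 to 0.017). In fed mice alone it did not pass the threshold (-0.39 ± 0.24, interval -0.92 to 0.13, adjusted p = 0.483).

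Between feeding states Slc30a10 had the lowest fold change of the set. Its log2 fold change, fasted over fed, was -2.76 ± 0.26 in PC (6.77-fold lower) and -1.72 ± 0.25 in PP (3.3-fold lower). It was number 81 from the bottom of 12086 genes in PC and number 244 in PP. No fasted library overlapped a fed one of its zone. The difference of the log2 fold changes, PC minus PP, was -1.04 ± 0.35 (interval -1.80 to -0.27). It had an unadjusted p of 0.0123 and an edgeR adjusted p of 0.997, so the response to fasting was not shown to differ between zones.

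**Figure D3:**
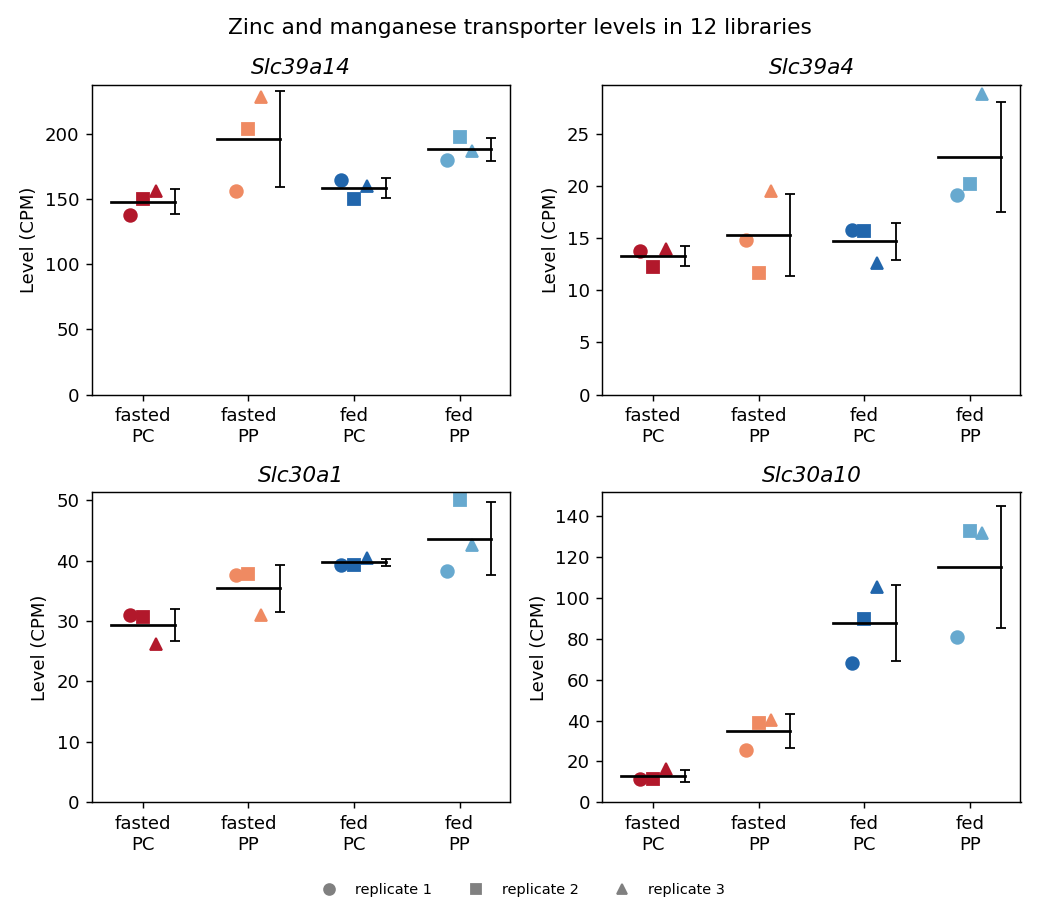
Levels of the 4 transporter genes in CPM in each of the 12 libraries, by group, with group means (lines) and SD (bars, n = 3). Slc30a10 ranges from 11.18 CPM in fasted PC to 132.7 CPM in fed PP libraries, while Slc39a14 stays between 137.6 and 228.5 CPM.

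The metallothioneins were not called between zones. The log2 fold change of Mt1, PC over PP, was -0.50 ± 0.52 in fasted mice (95% interval -1.65 to 0.66, edgeR adjusted p = 0.677) and -0.30 ± 0.53 in fed mice (-1.48 to 0.88, adjusted p = 0.86). That of Mt2 was -0.65 ± 0.55 in fasted mice (-1.88 to 0.58, adjusted p = 0.589) and -0.83 ± 0.63 in fed mice (-2.24 to 0.59, adjusted p = 0.606). PC and PP libraries overlapped for both genes in both states, and the intervals are wide enough to hold a difference of 2-fold or more in favour of PP. Averaged over feeding states, Mt1 stood at -0.40 ± 0.37 (adjusted p = 0.577) and Mt2 at -0.74 ± 0.42 (adjusted p = 0.319). Without fasted PC replicate 1, the library in which some zone markers stood apart, the averaged value of Mt2 was -1.15 and passed the threshold (edgeR adjusted p = 0.041). The part of the zone markers of that library in its metallothionein levels was not tested. The difference of the fasting responses, PC minus PP, was -0.20 ± 0.74 for Mt1 (interval -1.85 to 1.45) and 0.18 ± 0.83 for Mt2 (-1.70 to 2.05), both with an adjusted p of 0.997.

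Across the set, all 6 genes had a negative log2 fold change PC over PP in fasted and in fed mice, where 34.9% of the 12086 tested genes were negative in both. Most of these values were not called. With 1 library left out, Mt1 in fed mice reached 0.02 and Slc39a4 in fasted mice 0.00. Mt1 and Mt2 had much the same pattern over the libraries, so the 6 signs are not independent. The median over the set was -0.45 in fasted mice, -0.35 in fed mice and -0.41 averaged, against 0, -0.01 and -0.01 over all tested genes. In fasted mice 1 of 6 was called (Slc30a10, lower in PC), beside 6.40% of all tested genes called in either direction and 3.05% called lower. In fed mice 0 of 6 were called in edgeR and in DESeq2, 1 had an unadjusted p under 0.05 in edgeR (Slc39a4), and 4.72% of all genes were called. Averaged over feeding states 2 of 6 were called, Slc39a14 and Slc30a10, beside 13.0% of all genes and 6.50% called lower. PC and PP did not overlap for 2 of 6 genes in fasted mice (Slc39a14 and Slc30a10) and for 2 of 6 in fed mice (Slc39a14 and Slc39a4), beside 22.0% and 26.0% of all genes in either direction and 10.6% and 13.1% with PC lower. For the difference of the fasting responses 0 of 6 and 0% of all genes were called in edgeR. Over all genes 465 had an unadjusted p under 0.05 there, and DESeq2 called 11, none of them in the set. Fasted and fed libraries did not overlap for 4 of 6 genes in PC and the same 4 in PP, namely Mt1, Mt2, Slc30a1 and Slc30a10. The share over all genes was 41.7% in PC and 34.6% in PP, from which nothing is read because fasting chose the set.

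**Figure D4:**
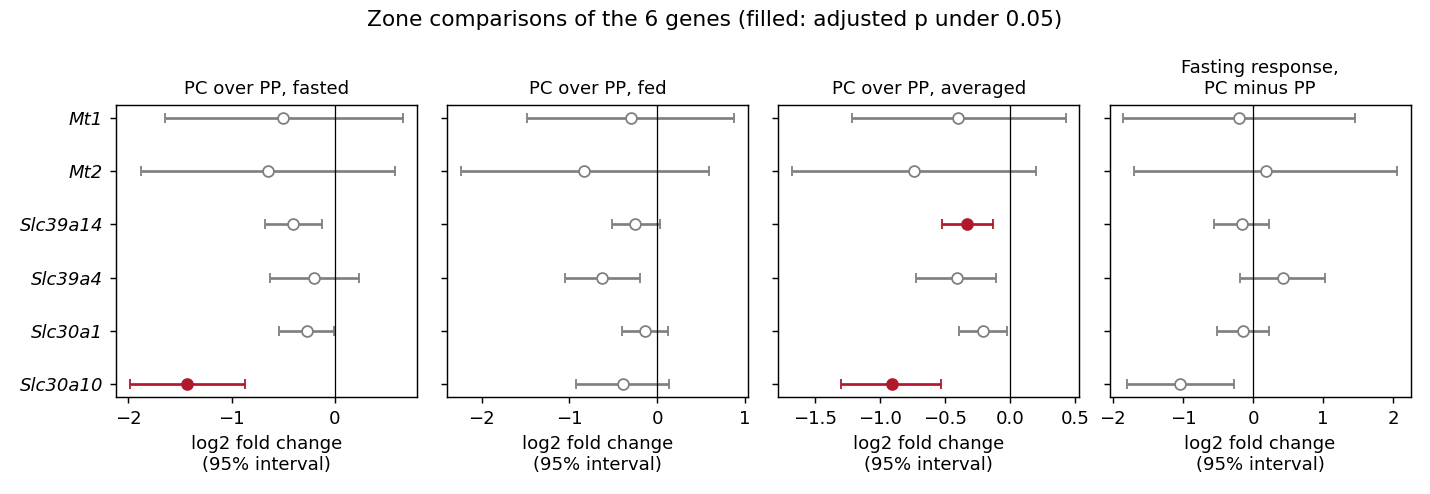
Log2 fold changes of the 6 genes with 95% intervals: PC over PP in fasted mice, in fed mice and averaged, and the fasting response in PC minus that in PP. Filled points have an edgeR adjusted p under 0.05: Slc30a10 in fasted mice, and Slc39a14 and Slc30a10 averaged.

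Genes whose pattern over the 12 libraries was most like each gene were found by the root mean square difference of standardised log2 CPM, among 8152 genes. A value of 0 means the same pattern, and Mt1 and Mt2 differed from each other by 0.169. Nearest to the mean of Mt1 and Mt2 were Elk4 (0.205), an ETS family transcription factor, Hmox2 (0.220), the constitutive heme oxygenase, Ppp3ca (0.222), a calcineurin subunit, Hnrnpdl (0.231), an RNA-binding protein, and Tbc1d17 (0.235), a Rab regulator. Their changes were much smaller in size: Elk4 averaged 39.54 CPM in fasted PC and 42.52 in fasted PP, against 25.31 in fed PC and 27.06 in fed PP. Nearest to Slc30a10 were Tkfc (0.190), a kinase of fructose metabolism, Hcn3 (0.195), a cation channel, and Atp2b2 (0.213), a plasma membrane calcium pump. Tkfc averaged 209.4 CPM in fasted PC and 528.1 in fasted PP, against 1078 in fed PC and 1120 in fed PP. Slc30a1 was nearest to Tceal8 (0.323), Gtpbp4 (0.350) and Fgfr3 (0.367). For the importers the nearest genes were farther off: the nearest gene to Slc39a14 was the phosphate transporter Slc20a1 (0.411), then Adarb1 (0.419) and Rdh13 (0.480), and the nearest to Slc39a4 was the ethanolamine kinase Etnk1 (0.397), then Dip2c (0.421) and Iqsec1 (0.483).

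The remaining genes of zinc and metal handling were read from a list of 41 genes, of which 37 were tested. Fasted over fed, 2 were higher and 6 lower in PC (21.4% of all genes called), and 1 was higher and 7 lower in PP (17.9% of all genes called). The list median log2 fold change was 0.03 in PC and -0.04 in PP, against 0 over all genes in both. Mtf1, which encodes MTF-1, was lower in fasted mice. It averaged 11.62 ± 2.53 CPM in fasted PC and 12.22 ± 2.27 in fasted PP libraries, against 19 ± 2.03 in fed PC and 18.53 ± 1.36 in fed PP libraries, with no overlap in either zone. The log2 fold change of Mtf1 was -0.71 ± 0.17 in PC (edgeR adjusted p = 0.0113) and -0.60 ± 0.17 in PP (0.0289). The PC call ended without fasted PC replicate 2 (0.051), and the PP call without fasted PP replicate 1 (0.12), fasted PP replicate 2 (0.1), or fed PP replicate 1 (0.09), 2 (0.056) or 3 (0.078). It was the single call of edgeR with fasting in a list of 5 genes that also holds Gclc, Selenow, Csrp1 and Ndrg1.

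Among 12 further ZIP importers, of which 11 were tested, 1 was called higher and 2 lower with fasting in PC. In PP 0 were called higher and 3 lower. Over all genes 21.4% were called in PC (1345 higher and 1237 lower) and 17.9% in PP (1014 higher and 1148 lower). Slc39a10, which imports zinc, had a log2 fold change of -0.79 ± 0.25 in PC (edgeR adjusted p = 0.0398) and -1.0 ± 0.25 in PP (0.0149). Its PC call ended without fasted PC replicate 1 or 3 or any fed PC library (0.074 to 0.11), and its PP call without fasted PP replicate 1 or 2 or fed PP replicate 3 (0.055 to 0.062). Slc39a7, which releases zinc from the endoplasmic reticulum, stood at -0.38 ± 0.12 in PC (0.0321) and -0.50 ± 0.12 in PP (0.011). Its PC call ended without fasted PC replicate 1 or 3 or any fed PC library (0.063 to 0.098), and its PP call without fed PP replicate 2 (0.055). Slc39a9 was called lower in PP (-0.37 ± 0.09, 0.0163) and stood at -0.26 ± 0.09 in PC (0.0642). Its PP call ended without fasted PP replicate 1 or fed PP replicate 1 or 2 (0.058 to 0.079). The single higher call was Slc39a1 in PC (0.41 ± 0.12, 0.0249), which ended without fasted PC replicate 1 or 3 or fed PC replicate 2 or 3 (0.065 to 0.12) and under scaling by total counts (0.33, 0.061).

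Of 8 further ZnT genes, 7 were tested and 1 was called with fasting (21.4% of all genes called in PC and 17.9% in PP). Slc30a5, which loads zinc into the secretory pathway, had a log2 fold change of -0.51 ± 0.12 in PC (edgeR adjusted p = 0.0101, kept with any 1 library left out) and -0.49 ± 0.12 in PP (0.0139), where the call ended without fasted PP replicate 1 (0.057) or fed PP replicate 1 (0.058). In 14 genes of copper, manganese and iron handling, 1 was higher and 2 lower in each zone, beside the same shares of all genes. Slc40a1, the iron exporter ferroportin, was higher, with log2 fold changes of 1.57 ± 0.16 in PC (8.26e-05) and 0.90 ± 0.16 in PP (0.00229), kept with any 1 library left out. The copper genes Atp7b, a copper pump, and Slc31a1, a copper importer, were lower in both zones. Atp7b stood at -0.70 ± 0.19 in PC (0.0203; ended without fasted PC replicate 2 or 3 or fed PC replicate 3, 0.071 to 0.084) and -0.62 ± 0.19 in PP (0.0388; ended without any 1 of 7 libraries, namely all fasted PP libraries, fed PP replicates 2 and 3 and fed PC replicates 1 and 2, 0.051 to 0.13). Slc31a1 stood at -0.32 ± 0.09 in PC (0.0296; ended without fasted PC replicate 2 or 3 or any fed PC library, 0.056 to 0.11, and with no filter on low counts, 0.082) and -0.51 ± 0.09 in PP (0.00288; kept).

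**Figure D5:**
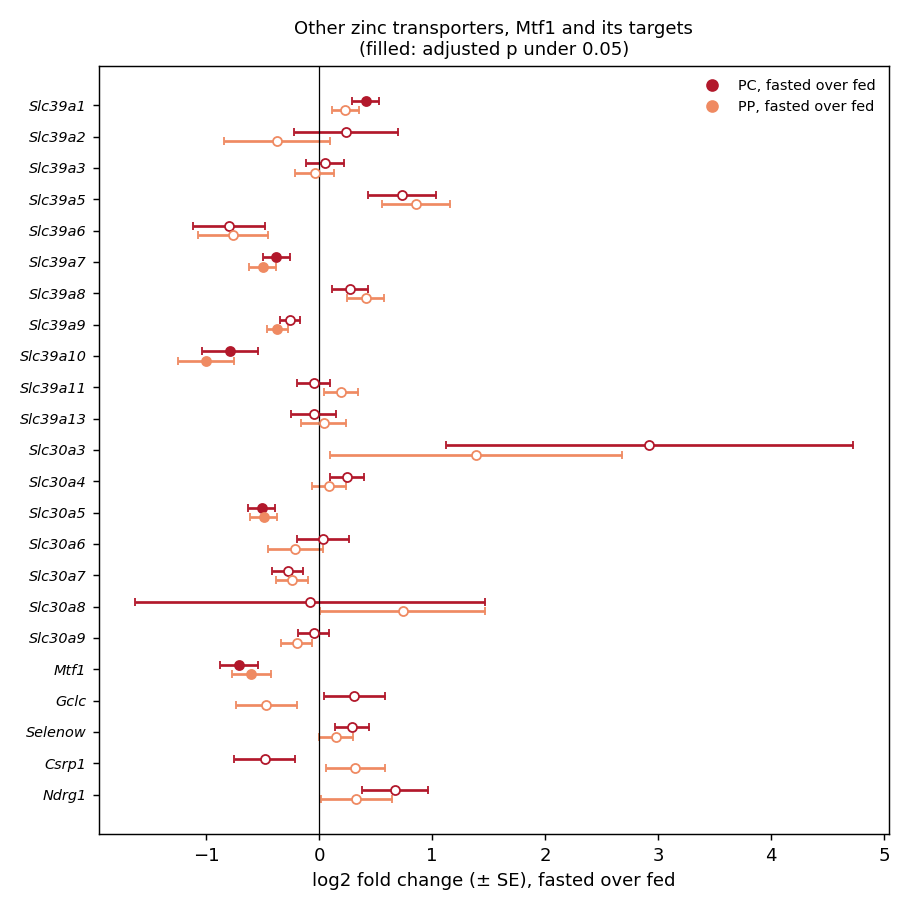
Log2 fold changes, fasted over fed, with SE, of the 23 tested further zinc transporters, Mtf1 and MTF-1 list genes in PC and PP. Filled points have an edgeR adjusted p under 0.05. Below 0 they are Mtf1, Slc39a10, Slc39a7 and Slc30a5 in both zones and Slc39a9 in PP. Above 0 stands Slc39a1 in PC. The wide bars of Slc30a3 and Slc30a8 belong to genes of very low count.

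Between zones, averaged over feeding states, 4 of the 37 were higher and 3 lower in PC (13.0% of all genes called), and each of these calls was kept with any 1 library left out. Higher in PC were Slc39a9 (0.41 ± 0.07, edgeR adjusted p = 0.00118), the stress gene Ndrg1 (1.40 ± 0.21, 0.000756), and Ccs (0.46 ± 0.10, 0.0081) and Sod1 (0.52 ± 0.11, 0.00622), the copper chaperone and the copper-zinc superoxide dismutase it loads. Lower in PC were Slc40a1 (-0.86 ± 0.11, 0.000221) and ceruloplasmin Cp (-0.54 ± 0.09, 0.00141). Also called lower was Slc30a8, known from pancreatic beta cells. It had at most 0.103 CPM in PC libraries and 0.1408 to 0.8787 CPM in PP libraries, too few counts for a fold. It passed the filter on low counts only through PP libraries, so nothing is read from its call. The list median was 0.02, against -0.01 over all genes, where that of the 6 genes was -0.41. A median near that of the 6 genes was not particular to them. It was -0.43 for the 11 genes of the glucocorticoid response and -0.40 for the 14 of the acute phase, both described below.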

How the data were processed

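Estimated counts per gene were deposited by the authors. The tool kallisto 0.46.0 and the build mm10 are named in the submitters' processing notes, and the transcript annotation was not given in the sources used here. Libraries were made with the NEBNext Ultra kit, per the labels' protocols, which does not mark strand. Estimated counts were rounded to whole numbers. Genes were filtered with filterByExpr and libraries scaled by TMM, and 1 model with a mean per group was fitted to all 12 libraries in edgeR 4.0.16 (R 4.3.3, robust quasi-likelihood, 8 residual degrees of freedom). p-values were adjusted by Benjamini-Hochberg over 12086 genes, called under 0.05, and measure the spread between these libraries. Libraries of a group differed by more than sampling noise. Symbols and coordinates came from GENCODE M21 (27566 of 28030 identifiers matched), promoters from RefSeq. Levels are CPM on scaled library sizes. The 6 genes and all lists were chosen with earlier results of these data known. Named are all 6 genes, Mtf1, up to 3 called genes per direction of each list, and the nearest patterns (5 for the metallothioneins, 3 for each transporter, among genes of at least 5 CPM). Alternatives were RLE size factors, total counts, DESeq2 1.42.0, no filter, a replicate block and leaving out each library. The fit was also run on simulated counts with known changes in fasted PC only. Those counts held neither pairing nor a deviating library, and the outcome is not given here.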

Additional observations from a re-analysis of the deposited data

How the results depend on the processing

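Under RLE size factors, total counts, DESeq2, no filter and the replicate block, the zone values of the 6 genes kept their sign, and the calls of Slc30a10 held. Slc39a14 averaged over feeding lost its call under total counts (-0.25, adjusted p = 0.11), and in fasted mice gained one with DESeq2 (-0.41, 0.041). DESeq2 called 909 genes between zones in fed mice, against 570 in edgeR, and 11 for the difference of fasting responses, against 0; no filter gave 1. Total counts moved the split of calls to 1261 higher and 619 lower for the averaged zone (782 and 785 with TMM), to 377 and 241 for the zone in fed mice (271 and 299), to 595 and 302 in fasted mice (405 and 369), to 1025 and 1545 for fasting in PC (1345 and 1237) and to 772 and 1523 in PP (1014 and 1148).

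Leaving out 1 library at a time, genes called ran from 292 to 701 for the zone in fed mice, 386 to 1005 in fasted mice, 1593 to 2618 for fasting in PC, 1405 to 2414 in PP and 0 to 2 for the difference of responses. Other zinc and metal genes called ran from 1 to 4 (3 with all libraries), 2 to 8 (7), 3 to 9 (8) and 3 to 9 (8) for the first 4 of these. Log2 fold changes ran from -1.15 to -0.49 (Mt2, averaged zone), -0.40 to -0.26 (Slc39a14, averaged), -0.57 to -0.30 (Slc39a14, fasted), -0.49 to -0.30 (Slc39a4, averaged) and 4.68 to 5.86 (Mt2, fasting in PC). Signs turned for these values without a call: Mt1 in fed mice (-0.78 to 0.02, positive without fed PC replicate 2), Slc39a4 in fasted mice (-0.37 to 0.00, at zero without fasted PP replicate 3), Slc39a14 for fasting in PP (-0.05 to 0.22, negative without fasted PP replicate 3; -0.02 under total counts), and the difference of responses for Mt1 (-0.86 to 0.29) and Mt2 (-0.67 to 0.63). Where a leave-out leaves 2 libraries in a group, the fit pools the spread of all groups. Beyond what the construction shows (fewer libraries), the causes were not tested.

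The libraries were not treated as paired, since the labels do not say whether libraries of the same number share a mouse. A fed and a fasted library cannot share one, so only PC with PP pairs of the same feeding state bear on this. For replicates 1, 2 and 3, the correlations of deviations of these pairs were 0.16, -0.11 and 0.07 in fasted mice. In fed mice they were 0.21, 0.04 and 0.13. Of all 18 same-number pairs, fed with fasted included, 3 were over 0.1, all of them PC with PP of the same feeding state. Whether such pairs share a mouse was not settled by these values. Compared with the libraries of all other groups, of both feeding states, 7 of 12 libraries were nearest to their own number. With the replicate block, calls were 625 (zone, fed), 796 (zone, fasted), 1627 (averaged), 2696 (fasting in PC), 2223 (fasting in PP) and 0 for the difference of responses, where Slc30a10 had an unadjusted p of 9.39e-05 and an adjusted p of 0.378. No call of the 6 genes changed with the block, while Atp7b lost its call for fasting in PP (adjusted p = 0.063).

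With 3 libraries a group, a p that misses the threshold does not show that values did not differ, as the wide intervals of Mt1 and Mt2 show. Mt2, Slc30a1 and Slc30a10 share bases with genes on the other strand. Protein and metal content were not analysed here.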

Other observations

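Genes of the glucocorticoid response were mostly higher in fasted mice. Like all lists here, this list was chosen with earlier results of these data known, so its counts are no independent support. The part of glucocorticoids in these changes was not tested. Of 11 listed genes, 7 were higher and 0 lower in PC (21.4% of all genes called in either direction), and 6 were higher and 0 lower in PP (17.9%). The median log2 fold change, fasted over fed, was 1.29 in PC and 1.37 in PP, against 0 over all genes. Not called were 4 genes in PC and 5 in PP. Uncalled in both zones were Tsc22d3 (-0.50 in PC and 0.18 in PP), Dusp1 (0.26 and -0.02), Nr3c1 (-0.14 and 0) and Zbtb16 (1.29 and 1.35). Tat was not called in PP (1.06). Pck1, a key enzyme of gluconeogenesis, had a log2 fold change of 5.14 ± 0.73 in PC (edgeR adjusted p = 0.00123) and 3.39 ± 0.67 in PP (0.00776). Klf9, a transcription factor induced by glucocorticoids, averaged 139 CPM in fasted PC and 180.5 CPM in fasted PP, against 31.25 CPM in fed PC and 34.48 CPM in fed PP, with log2 fold changes of 2.15 ± 0.14 (4.56e-06) and 2.39 ± 0.15 (2.15e-06). Sgk1, a kinase induced by glucocorticoids, stood at 2.09 ± 0.43 in PC (0.00572), and the clock gene Per1 at 1.97 ± 0.40 in PP (0.00758). These calls of Pck1, Klf9, Sgk1 and Per1 were kept with any 1 library left out. The call of Sgk1 in PP (1.65 ± 0.41, 0.0185) ended without fasted PP replicate 3 (0.055) or fed PP replicate 2 (0.068) and with no filter on low counts (0.054). That of Tat, a tyrosine-degrading enzyme, in PC (1.18 ± 0.35, 0.0338) ended in 5 of 12 leave-outs, those of fasted PC replicates 2 and 3, fed PC replicates 2 and 3 and replicate 1 of fed PP (0.05 to 0.12) and with no filter (0.093).

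Of 14 genes of the acute phase and IL-6 response, 2 were called higher with fasting in PC (Lbp, Stat3) and 4 in PP (Lcn2, Lbp, Hp, Stat3), with 0 called lower in either zone (21.4% and 17.9% of all genes called). The median log2 fold change was 0.26 in PC and 0.25 in PP, against 0 over all genes. Not called were 12 genes in PC and 10 in PP. Uncalled and below 0 in both zones were Saa1 (-0.72 in PC and -0.37 in PP), Saa2 (-0.15 and -0.63), Orm1 (-0.35 and -0.28) and Orm2 (-0.28 and -0.06). Uncalled and above 0 in both were Fgg, Fgb, Socs3 and Serpina3n. Lbp, which binds bacterial lipopolysaccharide, had a log2 fold change of 1.01 ± 0.15 in PC (edgeR adjusted p = 0.000815) and 0.96 ± 0.15 in PP (0.00132). Lcn2, an iron-trapping protein, averaged 20.91 CPM in fasted PP, against 5.71 CPM in fed PP libraries (1.87 ± 0.29, 0.00122), and 4.061 CPM in fasted PC, against 3.92 CPM in fed PC libraries (0.06 ± 0.30, 0.908). The difference of its responses was not called (PC minus PP -1.81 ± 0.42, adjusted p = 0.997). Stat3, the signal carrier of IL-6, stood at 0.52 ± 0.12 in PC (0.00889) and 0.44 ± 0.12 in PP (0.0244). Its PP call ended without fasted PP replicate 3 or any fed PP library (0.052 to 0.067) and under scaling by total counts (0.063). Hp, which binds free hemoglobin, stood at 0.71 ± 0.18 in PP (0.0184), a call that ended without fasted PP replicate 1 (0.069) or fed PP replicate 2 (0.06) or 3 (0.065).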
